A study of Mus musculus with 40 samples.

Results

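The 34 genes described here encode the basement membrane of the lung epithelium and the receptors that attach cells to it. They were chosen by symbol, from a list of laminin chains, collagen IV chains, other sheet components and receptors. All 34 were found among the 55260 gene symbols in each table (55286 in the table of the LO libraries). By role they comprise 9 laminin chains, 6 collagen IV chains, 7 nidogens, proteoglycans and crosslinking or matricellular proteins, 4 genes of the Fraser complex and nephronectin, and 8 receptors.

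A basement membrane is a thin protein sheet on which epithelium rests. Laminins are trimers of an alpha, a beta and a gamma chain and form one network. Collagen IV trimers form another, and nidogens and perlecan (Hspg2) link both. Integrins and dystroglycan (Dag1) hold cells to the sheet. In the embryonic lung the sheet thins at growing tips and is rebuilt as branches form, and in the adult alveolus it lies between thin epithelial cells and capillaries.

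The values are TPM from mouse RNA, each gene's share of all transcripts in a library scaled to a fixed total and for transcript length. Of 40 libraries, 4 were lung tip epithelium, 1 per embryonic day (E) from E10.5 to E13.5, and 10 were organoids named by the embryonic day at which culture began, E9.5 to E14, and by 11 to 32 days of culture (1 library per combination). The condition ALL and its variants ALL-FGF10, ALL-MTG and ALL-VC had 2 numbered libraries each. The remaining libraries were 1 intact organoid and 8 pieces, LO_day8, LO_day11, LO_day18 and LO_day11_DCI, and a set with 2C, 2C+F10, 2C+MTG, 2C+VC and 1 unnumbered ALL library (n = 1 each). The labels do not define ALL, 2C, LO, DCI, MTG, VC or F10. Reading ALL as complete, a minus sign as omission and a plus sign as addition is an assumption. Strain, pooling of animals and the origin of the replicates are not given in the sources used here. A p-value thus covers the spread among these libraries only. Between numbered libraries that spread may be technical. In the comparison of organoids with tips it also holds differences of embryonic day and culture day.

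TPM keeps no read depth, so counting precision is unknown. Libraries listed 13036 to 14418 genes at 1 TPM or more. General lung epithelial markers were present throughout, with 8 markers summing to 1879 to 2076 TPM in tips and 1878 to 2237 TPM in organoids. The tips, labelled as epithelium, also held markers of other cells. Their 7 blood markers, mostly globins, summed to 1751 to 7622 TPM, against 1.57 to 7.60 TPM in organoids, where Hba-a1, Hbb-bs and Hbb-y were at 0 in all 10. The 8 endothelial markers summed to 29.4 to 74.8 TPM in tips and 4.68 to 12.0 TPM in organoids. The 12 mesenchymal markers summed to 52.2 to 165 TPM in tips, each marker above 1 TPM in at least 1 tip, and to 2.15 to 193 TPM in organoids (median 6.23). In 3 organoids the mesenchymal sum passed 30 TPM: E10.5 at 11 days (63.3 TPM), E11.5 at 11 days (35.8 TPM) and E10.5 at 32 days (193 TPM, of which Dcn gave 188). Results that rest on these organoids are given with and without them. Alveolar type 2 markers summed to 139 to 294 TPM in tips and 54144 to 134993 TPM in organoids. The 5 basal cell markers summed to 2.22 to 5.00 TPM in tips and 0 to 0.30 TPM in organoids. Of these, Krt5 and Krt14 stayed under 1 TPM, while Trp63, Krt15 and Ngfr passed 1 TPM in at least 1 tip.

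Promoter windows show how the collagen IV genes are arranged and which windows belong to the members with the largest changes. RefSeq windows (build GRCm38.p6, 250 bases before to 50 after a start, 300 bases in all) were found for 25 of the 34 members, with 33 windows. The collagen IV genes lie in head-to-head pairs. By gene annotation, the starts of Col4a1 and Col4a2 on chromosome 8 are 21 bases apart, those of Col4a3 and Col4a4 on chromosome 1 are 72 bases apart, and those of Col4a5 and Col4a6 on chromosome X are 1309 bases apart. The first window below (chr8:11312555-11312854, plus strand) holds the starts of both Col4a1 and Col4a2, and the second (chr1:82586800-82587099, minus strand) those of both Col4a3 and Col4a4. Itgb6 (chr2:60722554-60722853, minus strand) and Lamb3 (chr1:193301744-193302043, plus strand, inside the annotated gene) belong to the members with the largest rises in organoids. Lamb1 (chr12:31265043-31265342, plus strand) and Frem2 (chr3:53657306-53657605, minus strand) belong to members that fell. Each is printed 5′ to 3′, with capitals for matches, on either strand, to 6 short patterns: the TATA box, the CCAAT box, the GC box, the AP-1 site, the TEAD core and the NKX core.
Col4a2: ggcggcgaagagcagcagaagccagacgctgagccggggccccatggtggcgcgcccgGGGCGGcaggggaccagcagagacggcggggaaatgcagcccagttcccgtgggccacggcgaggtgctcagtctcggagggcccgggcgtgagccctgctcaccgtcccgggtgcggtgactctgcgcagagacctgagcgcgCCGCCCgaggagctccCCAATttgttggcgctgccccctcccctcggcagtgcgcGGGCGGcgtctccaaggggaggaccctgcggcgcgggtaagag
Col4a4: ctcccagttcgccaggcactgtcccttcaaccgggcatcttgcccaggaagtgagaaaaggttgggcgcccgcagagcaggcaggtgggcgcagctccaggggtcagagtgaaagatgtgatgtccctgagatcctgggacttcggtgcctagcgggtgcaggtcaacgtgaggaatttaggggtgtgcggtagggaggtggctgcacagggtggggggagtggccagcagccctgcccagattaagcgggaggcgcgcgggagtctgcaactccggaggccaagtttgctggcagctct
Itgb6: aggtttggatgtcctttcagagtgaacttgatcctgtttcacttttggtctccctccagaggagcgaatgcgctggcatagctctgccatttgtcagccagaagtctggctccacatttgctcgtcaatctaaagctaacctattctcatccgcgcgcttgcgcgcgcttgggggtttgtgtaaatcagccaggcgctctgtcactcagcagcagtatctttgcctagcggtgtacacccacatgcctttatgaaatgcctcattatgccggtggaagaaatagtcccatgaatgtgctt
Lamb3: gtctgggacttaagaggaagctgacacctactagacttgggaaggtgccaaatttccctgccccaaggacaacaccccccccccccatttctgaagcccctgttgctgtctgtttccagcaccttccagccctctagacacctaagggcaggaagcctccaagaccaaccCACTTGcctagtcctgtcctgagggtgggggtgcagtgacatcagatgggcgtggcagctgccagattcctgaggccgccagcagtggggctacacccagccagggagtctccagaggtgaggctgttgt
Lamb1: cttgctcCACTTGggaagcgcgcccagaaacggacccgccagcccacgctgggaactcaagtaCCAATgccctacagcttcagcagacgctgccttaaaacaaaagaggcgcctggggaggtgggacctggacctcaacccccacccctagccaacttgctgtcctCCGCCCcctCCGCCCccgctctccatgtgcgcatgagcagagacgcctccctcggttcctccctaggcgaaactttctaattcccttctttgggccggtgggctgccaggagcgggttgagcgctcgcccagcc
Frem2: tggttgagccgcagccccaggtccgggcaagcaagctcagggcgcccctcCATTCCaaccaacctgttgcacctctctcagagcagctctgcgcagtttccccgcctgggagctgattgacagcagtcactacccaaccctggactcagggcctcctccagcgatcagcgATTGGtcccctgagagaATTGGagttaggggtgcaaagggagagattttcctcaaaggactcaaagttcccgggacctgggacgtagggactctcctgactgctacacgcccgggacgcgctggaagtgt
No pattern is contained in another. The GC box, searched as GGGCGG, occurred in 60.6% of the member windows and in 35.7% of all 32851 windows, and the median GC content was 61.3% against 52.7%. The TATA box, searched as TATAAA, occurred in 0 of the 33 member windows and in 13.6% of all windows. For the CCAAT box, searched by those letters, the shares were 36.4% of member windows and 37.4% of all. The TEAD core, CATTCC, was found in 18.2% of member windows and in 14.7% of all. The NKX core was searched as CAAGTG and was found in 18.2 and 13.6%. The AP-1 site, TGANTCA, was found in 3.03 and 7.81%. The window shared by Col4a1 and Col4a2 held 3 GC boxes and 1 CCAAT box. The window shared by Col4a3 and Col4a4, and that of Itgb6, held none of the 6 patterns, which says only that these letters are not there.

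The first comparison asked how the sheet differs between organoids (n = 10) and tips (n = 4). The laminin beta chain changed from Lamb1 to Lamb3 and Lamb2, the alpha chain Lama1 fell to under 5 TPM, the rarer collagen IV pair Col4a3 and Col4a4 rose, and the receptor subunit Itgb6 rose, while the peroxidasin gene Pxdn and the Fraser complex fell. By limma on log2(TPM + 1), with Benjamini-Hochberg adjustment over 16779 genes and a call at adjusted p under 0.05, 21 of 34 members were called, 10 higher and 11 lower. Of all genes 61.9% were called (21.7% higher and 40.2% lower), so the share of members called, as such, says little about them. The median log2 change was 0.07 over the members and -0.20 over all genes. After rescaling by median ratios the all-gene median was 0.06, and 25 members were called, 14 higher and 11 lower. The share of all genes called or past the fold was not counted under rescaling or other alternatives, here or below. Such counts therefore show only how the member calls held. In bulk RNA, fewer cells of a type and less RNA per cell cannot be told apart.

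**Figure D1:**
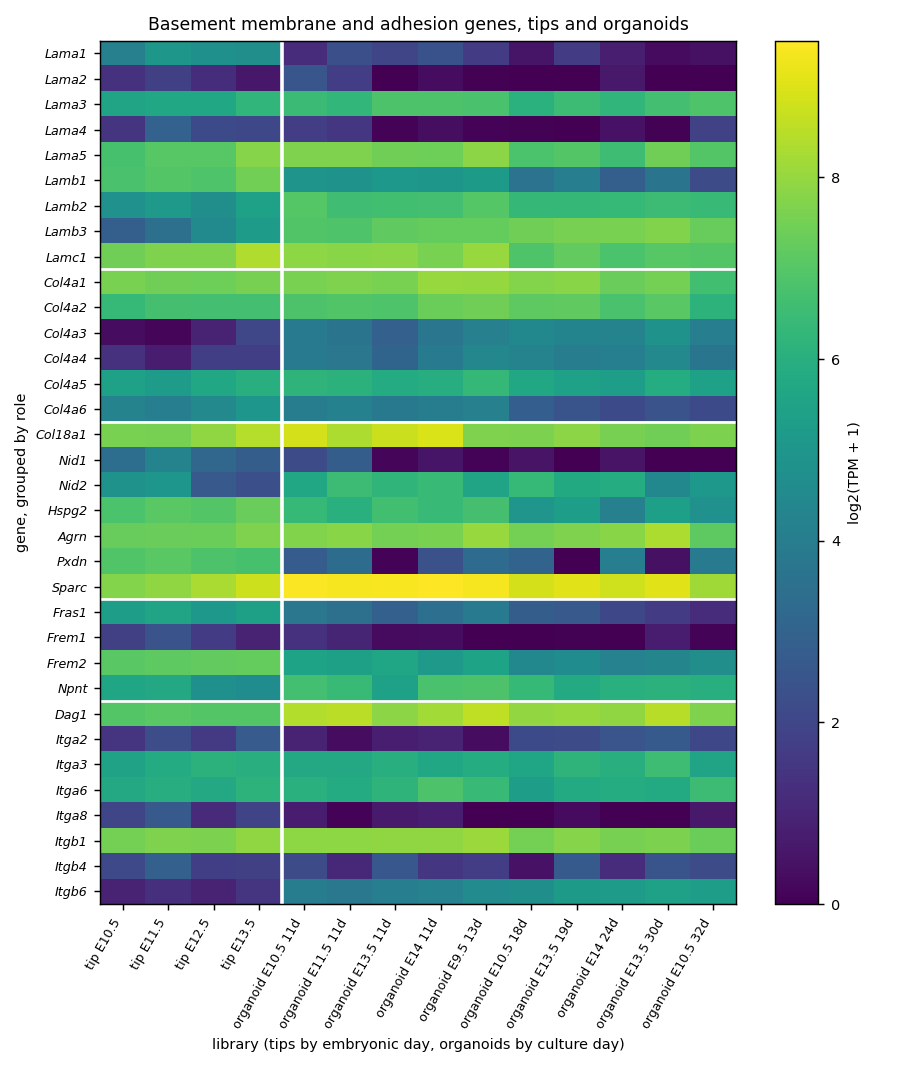
Levels of the 34 members as log2(TPM + 1) (colour) in 4 tips, by embryonic day, and 10 organoids, by culture day, with 1 library per column and white lines between roles. Lamb1, Pxdn and Frem2 are high on the tip side, and Lamb3, Col4a3, Col4a4 and Itgb6 on the organoid side.

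Among the laminin beta chains, Lamb1, the beta chain of embryonic laminins, stood at 109, 122, 119 and 176 TPM in tips by embryonic day. In organoids it ran from 3.64 to 35.5 TPM (median 21.9), and the groups did not overlap (log2 change -2.87 ± 0.48 SE, adjusted p = 8.72e-05). Lamb3, the beta chain of the epithelial laminin of hemidesmosomes, stood at 6.41, 10.3, 22.5 and 37.3 TPM in tips and at 116 to 205 TPM (median 154) in organoids. Every organoid lay above every tip (3.26 ± 0.31, adjusted p = 2.47e-07). Lamb2, the third beta chain, rose from 32.2 ± 8.22 (SD, n = 4) to 96.0 ± 17.9 TPM (n = 10), also without overlap (1.56 ± 0.16, adjusted p = 4.23e-07). As a share of beta chain TPM within a library, which is free of scaling between libraries, Lamb1 went from 72.5 ± 3.29% (SD) to 7.40 ± 4.29%, Lamb3 from 9.70 ± 5.09% to 57.8 ± 9.41%, and Lamb2 from 17.8 ± 2.52% to 34.8 ± 5.84%.

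Among the alpha chains, Lama1, typical of early embryonic sheets, stood at 16.7, 31.5, 26.5 and 25.1 TPM in tips and at 0.22 to 4.26 TPM (median 1.72) in organoids, again without overlap (log2 change -3.34 ± 0.39, adjusted p = 2.09e-06). Its share of alpha chain TPM was 11.1 ± 2.88% in tips and 0.689 ± 0.511% in organoids. Lama5, the main alpha chain of developing lung epithelium, gave 62.3 ± 3.69 and 61.1 ± 6.29% of alpha chain TPM and was not called (145.6 ± 48.4 and 159.7 ± 44.9 TPM, adjusted p = 0.636). Lama3, the partner of Lamb3, rose from 55.4 ± 13.2 to 95.2 ± 18.5 TPM (0.77, adjusted p = 0.000661), with overlap between the groups at 65.7 TPM in the E10.5 organoid of 18 days and 75.0 TPM in the E13.5 tip. Lamc1, the common gamma chain, was not called, at 225 ± 69.1 and 178 ± 57.7 TPM. Lama4, a chain of vessel walls, fell from 3.85 ± 2.23 to 0.760 ± 1.05 TPM (-1.56, adjusted p = 0.00317). Lama2, the muscle chain, was low in both groups (0.53 to 2.52 TPM in tips, 0 to 4.88 TPM in organoids) and not called.

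**Figure D2:**
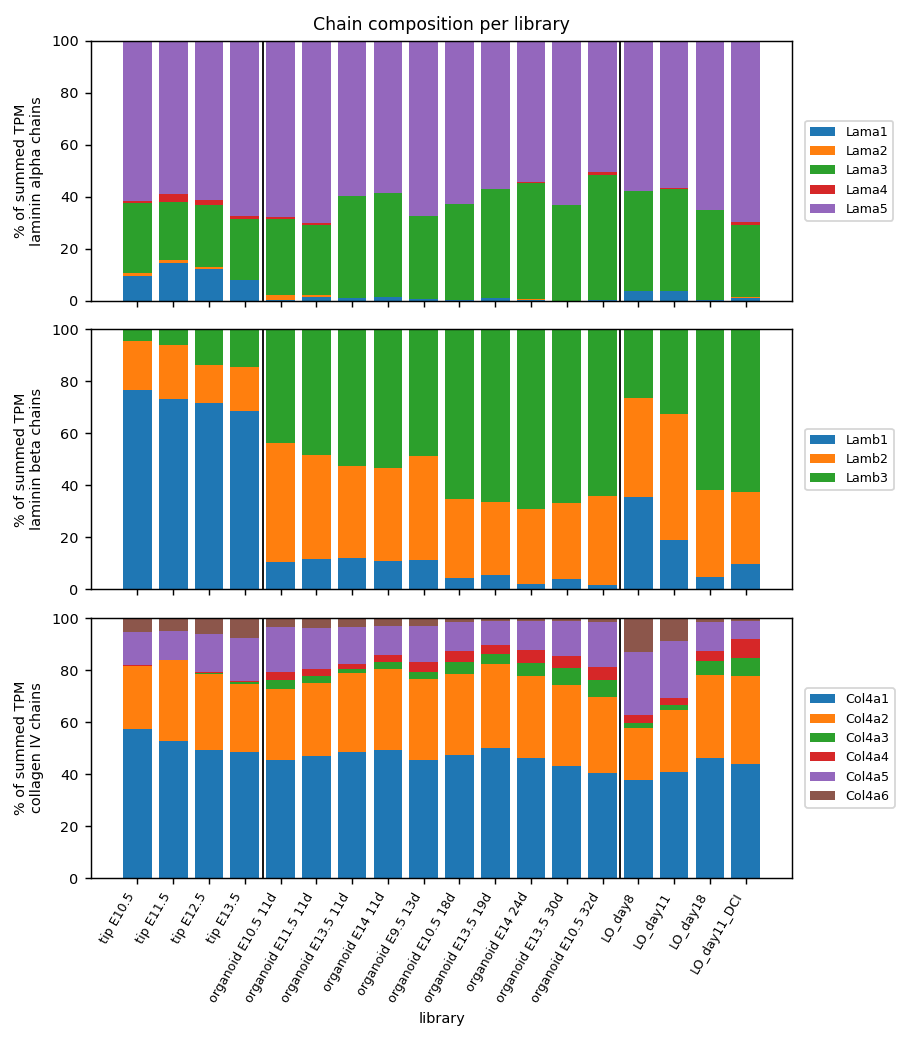
Share (%) of each chain in the summed TPM of the laminin alpha, laminin beta and collagen IV chains, per library, for tips, organoids by culture day, and LO libraries. Lamb1 gives most of the beta chain in every tip, and Lamb3 is the most abundant beta chain in all dated organoids but E10.5 at 11 days, where Lamb2 is.

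Of the collagen IV chains, Col4a1 and Col4a2, the pair found in nearly all basement membranes, were the most abundant in both groups and were not called (Col4a1 at 181 ± 10.7 and 198 ± 46.8 TPM, Col4a2 at 96.0 ± 10.1 and 129 ± 29.8 TPM). Col4a3 and Col4a4, chains of the collagen of the kidney filter and the alveolar wall, were near the floor in tips. Col4a3 stood at 0.26, 0.12, 0.89 and 3.05 TPM there and at 6.46 to 27.4 TPM (median 16.3) in organoids (3.16 ± 0.34, adjusted p = 8.37e-07). Col4a4 stood at 1.59, 0.65, 2.43 and 2.40 TPM in tips and at 7.25 to 21.2 TPM (median 14.8) in organoids (2.55 ± 0.25, adjusted p = 2.92e-07). Both genes were higher in all 10 organoids than in any tip, and their shares of collagen IV TPM went from 0.289 to 4.00% and from 0.499 to 3.64%. Col4a6 fell from 21.4 ± 6.44 to 9.90 ± 5.96 TPM with overlap (-1.23, adjusted p = 0.0194). That call was lost without the E13.5 tip (adjusted p = 0.0726) and with only the 5 organoids of 11 or 13 days (-0.41, adjusted p = 0.0622). Its partner Col4a5, at 36.9 to 63.3 TPM in tips and 39.5 to 78.8 TPM in organoids, was not called.

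Of the linking and crosslinking genes, Pxdn, which encodes the enzyme that crosslinks collagen IV, had the largest fall. It stood at 121, 133, 114 and 105 TPM in tips and at 0 to 15.8 TPM (median 6.46) in organoids, so that the groups lay far apart (-4.56 ± 0.72, adjusted p = 4.63e-05). The lowest 3 were the organoids from E13.5, at 0.07 TPM at 11 days, 0 at 19 days and 0.35 at 30 days. The nidogens moved in opposite directions. Nid1 fell from 10.4 ± 5.46 to 1.11 ± 2.05 TPM (-2.73, adjusted p = 0.00019), and Nid2 rose from 17.0 ± 14.3 to 59.0 ± 23.1 TPM (2.08, adjusted p = 0.00135), each with overlap. Hspg2 (perlecan) fell from 133 ± 19.9 to 58.4 ± 31.7 TPM (-1.38, adjusted p = 0.00781). Sparc, a collagen-binding protein, rose from 299.6 ± 99.7 to 572 ± 143 TPM (0.94, adjusted p = 0.00228). Agrn, a heparan sulphate proteoglycan, and Col18a1, the precursor of endostatin, were not called (adjusted p = 0.118 and 0.611).

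The Fraser complex, made of Fras1, Frem1 and Frem2, holds epithelium to the tissue beneath it in the embryo. Frem2 stood at 133, 141, 149 and 151 TPM in tips and at 17.7 to 48.0 TPM (median 29.1) in organoids (-2.22 ± 0.25, adjusted p = 1.76e-06). Fras1 stood at 37.7, 46.1, 32.4 and 40.9 TPM in tips and at 1.30 to 14.2 TPM (median 6.29) in organoids (-2.52 ± 0.43, adjusted p = 0.000102). Neither gene overlapped between the groups. Frem1 was low in both (2.49 ± 1.44 and 0.379 ± 0.531 TPM) and fell too (-1.33, adjusted p = 0.00101). Npnt (nephronectin), a ligand of the integrin that contains Itga8, rose from 37.6 ± 14.7 to 77.9 ± 24.1 TPM (1.05, adjusted p = 0.00245). Itga8 itself fell, from 3.10 ± 1.66 to 0.283 ± 0.315 TPM (-1.62, adjusted p = 4.39e-05).

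Among the other receptors, Itgb6, the subunit of the epithelial integrin that activates latent TGF-beta, had the largest rise of the 34. It stood at 0.89, 1.47, 0.93 and 1.75 TPM in tips and at 12.8 to 42.6 TPM (median 24.3) in organoids, with no overlap (3.49 ± 0.30, adjusted p = 8.36e-08). Dag1 (dystroglycan), a laminin receptor, rose from 126 ± 5.52 to 291 ± 63.3 TPM, also without overlap (1.17 ± 0.15, adjusted p = 6.37e-06). The laminin and collagen receptor subunits Itga2, Itga3, Itga6, Itgb1 and Itgb4 were not called. Itgb1, shared by most of these receptors, was the most abundant of the 5 (207 ± 24.8 and 218 ± 33.6 TPM), and Itgb4, the hemidesmosome subunit, stayed at 0.39 to 6.52 TPM over both groups.

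Markers of mesenchyme, vessels and blood were higher in tips than in organoids, as given above, and the summed interstitial matrix genes (10 genes, among them Fn1 and Vcan) ran from 422 to 710 TPM in tips and from 19.7 to 376 TPM in organoids. Their part in the falls was not tested. The E10.5 organoid of 11 days had a mesenchymal marker sum of 63.3 TPM and an interstitial matrix sum of 376 TPM. The makeup of its mesenchymal sum was unlike that of the tips. Dcn (35.7 TPM) and Lum (12.2 TPM) lay above every tip, and Twist1 (5.15 TPM) lay inside their range. Among those below every tip were Tbx4 (0.30 TPM), Tbx5 (0.16 TPM), Tcf21 (0.77 TPM) and Twist2 (0 TPM). This organoid held Pxdn at 5.77, Lama1 at 1.29, Lamb1 at 29.3, Fras1 at 12.6 and Frem2 at 44.9 TPM, each below every tip. What its mesenchymal cells gave to these levels was not tested. Without the 3 organoids of high mesenchymal markers, 23 members were called, 11 higher and 12 lower, among them all 21 named above. Leaving out 1 library at a time gave 20 to 23 calls.

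Other genes of the same pathway, 67 in all, were counted by list, beside 21.7% of all genes higher and 40.2% lower. Of other laminin and netrin chains 0 of 4 rose and 1 fell, of other basement membrane components 3 of 10 rose and 3 fell, of other matrix receptors 6 of 15 rose and 4 fell, of adhesion plaque genes 4 of 12 rose and 2 fell, of collagen and dystroglycan processing genes 1 of 17 rose and 5 fell, and of matrix proteases and inhibitors 3 of 9 rose and 3 fell. Cd44, a hyaluronan receptor, rose from 2.48 ± 1.34 to 65.6 ± 21.3 TPM (4.27, adjusted p = 6.3e-09). Egfl6, a basement membrane ligand of integrins, rose from 24.0 ± 8.35 to 466.1 ± 129 TPM (4.24, adjusted p = 1.92e-09). Htra1, a secreted protease, rose from 2.08 ± 1.33 to 53.9 ± 24.8 TPM (4.12, adjusted p = 2.68e-07). Smoc2, a calcium-binding matrix protein, fell from 43.5 ± 33.5 to 3.09 ± 2.32 TPM (-3.33, adjusted p = 4.72e-05).

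Across the tip stages (1 library each), a slope on embryonic day over the 3 days called 1 member, Lamb3, higher (log2 change 2.45 ± 0.24, adjusted p = 0.000859), and 0.733% of all genes (0.203% higher and 0.53% lower). Its level was higher at each later stage, and its share of beta chain TPM was 4.51% at E10.5 and 14.6% at E13.5. The call took its error partly from the organoids in the same fit. It was lost with the tips alone (adjusted p = 0.204) and without the E13.5 tip (adjusted p = 0.0542). Nid2 stood at 28.1, 30.6, 5.24 and 4.03 TPM, high at the 2 early and low at the 2 late stages, and missed the call (-2.98, adjusted p = 0.0569). At unadjusted p under 0.05 stood 7 members, 5 higher and 2 lower. The share of all genes at unadjusted p was not counted, here or below, so such counts have nothing to be set against. The embryonic day at which an organoid culture began called 0 members by limma (0.0536% of all genes, 0.0417% higher and 0.0119% lower), and 1, Pxdn, at unadjusted p under 0.05 (-2.17 over 4.5 days, adjusted p = 0.655).

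With days in culture, 3 of 9 laminin chains, 2 of 6 collagen IV chains, Fras1 and Frem2 of the Fraser complex, Hspg2, Col18a1, Sparc and 1 of 8 receptor genes fell in the organoids, and 2 receptor genes rose. A slope on culture day over 21 days, with the start day in the same fit, called 13 members, 2 higher and 11 lower, and 9.64% of all genes (2.97% higher and 6.67% lower). The median was -0.44 over the members and -0.17 over all genes, and after median-ratio rescaling, which set the all-gene median to 0, 10 members were called, 2 higher and 8 lower. Rescaling ended the calls of Col18a1, Itgb1 and Col4a1. Lamb3 (0.44, adjusted p = 0.0912) and Col4a3 (0.88, adjusted p = 0.14) had slopes above 0 that were not called.

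The 11 that fell included laminins, collagen IV chains, linking genes, Fraser complex genes and a receptor. Of the laminins, Lamb1 fell by 2.43 ± 0.35 (log2 over 21 days, adjusted p = 0.00208), Lama1 by 1.73 (adjusted p = 0.0122) and Lamc1 by 0.98 (adjusted p = 0.0156). Lamb1 stood at 28.1 to 35.5 TPM in the 5 organoids of 11 or 13 days and at 3.64 to 15.6 TPM in the 5 of 18 days or more, without overlap. Its share of beta chain TPM was 10.6 to 12.0% in the younger and 1.51 to 5.52% in the older organoids. Of collagen IV, Col4a6 fell by 2.01 ± 0.31 (adjusted p = 0.00289), from 13.4 to 16.9 TPM in the younger to 3.37 to 6.11 TPM in the older organoids, and Col4a1 fell by 0.76 (adjusted p = 0.0417). Fras1 fell by 2.19 ± 0.24 (adjusted p = 0.000749), from 6.58 to 14.2 TPM down to 1.30 to 6.00 TPM, and Frem2 by 1.07 (adjusted p = 0.0151). Hspg2 fell by 1.73 ± 0.42 (adjusted p = 0.0233), from 64.5 to 103 TPM down to 16.6 to 40.3 TPM, Col18a1 by 1.22 (adjusted p = 0.0213) and Sparc by 0.95 (adjusted p = 0.00566). For Lamb1, Lamc1, Col4a6, Fras1, Frem2, Hspg2, Sparc and Itgb1 the younger and older organoids did not overlap. The gap was narrow for Fras1, at 6.58 TPM in the younger and 6.00 TPM in the older, and for Itgb1, at 236 and 221 TPM. Lama1, Col4a1 and Col18a1 overlapped. Of the receptors, Itgb1 fell by 0.50 (adjusted p = 0.0203).

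The 2 that rose were receptor subunits. Itgb6 stood at 12.8 to 23.2 TPM in organoids of 11 or 13 days and at 25.4 to 42.6 TPM in those of 18 days or more (1.40 ± 0.24, adjusted p = 0.00539). Itga2, a collagen receptor subunit, stood at 0.24 to 0.94 TPM in the younger and at 3.13 to 5.45 TPM in the older (1.90 ± 0.41, adjusted p = 0.015), near its level in tips (1.69 to 5.55 TPM). For both, every older organoid lay above every younger one. Of the 67 other pathway genes, Itgb3 (2.61, adjusted p = 0.00537) and Fermt1, which activates integrins (1.60, adjusted p = 0.043), rose, and the membrane protease gene Mmp14 (-1.78, adjusted p = 0.00965) and Smoc2 (-1.68, adjusted p = 0.0428) fell.

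**Figure D3:**
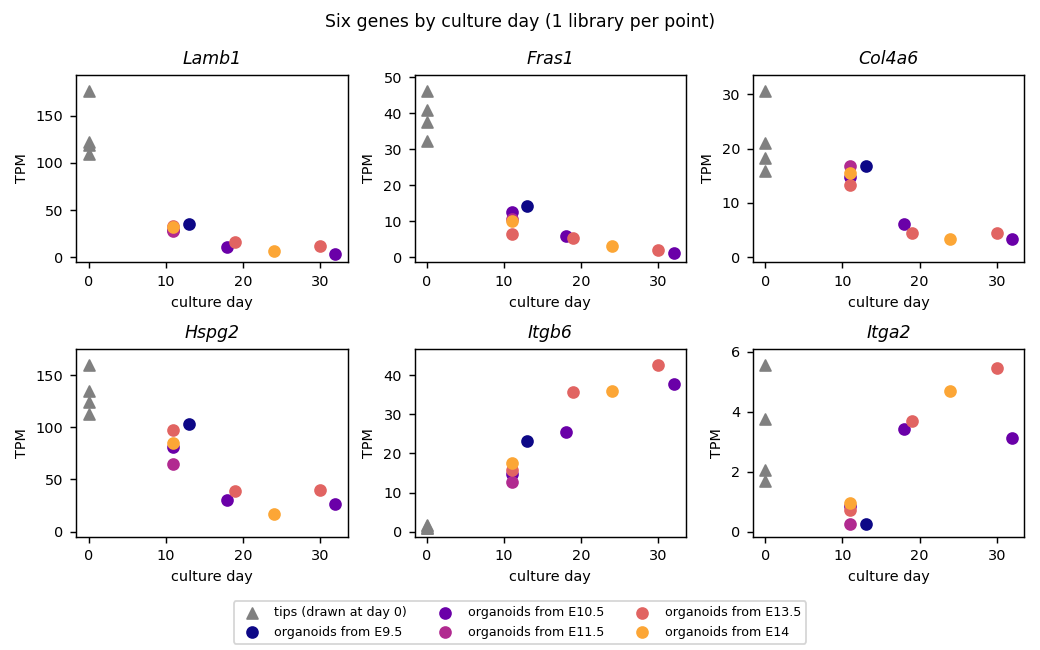
TPM of 6 members by culture day, with 1 library per point, circles coloured by the embryonic day at which culture began and triangles for the 4 tips, drawn at day 0. Lamb1, Fras1, Col4a6 and Hspg2 are lower and Itgb6 and Itga2 higher in the 5 organoids of 18 days or more than in the 5 of 11 or 13 days.

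The culture-day calls depended on a few libraries. Without the E10.5 organoid of 32 days, 8 members were called, 2 higher and 6 lower. The calls of Lamc1, Col4a1, Hspg2, Sparc and Itgb1 were lost, and the slope of Col4a1 was -0.30 (adjusted p = 0.552). Col4a1 lost its call in 10 of the 14 fits that left out 1 library. Without the 3 organoids of high mesenchymal markers (7 organoids left), 2 were called, Fras1 (-1.85, adjusted p = 0.0437) and Col18a1 (-1.64, adjusted p = 0.019). Among the others, the slope of Lamb1 was -2.14 (adjusted p = 0.11), Col4a6 -2.09 (adjusted p = 0.0894), Itgb6 1.47 (adjusted p = 0.0745) and Itga2 2.35 (adjusted p = 0.104). Of the 3 organoids left out, that of 32 days owed its marker sum of 193 TPM to Dcn (188 TPM). Its Pdgfra was at 0.05 TPM and its Col3a1 at 0.32 TPM. It was also the longest culture, so this fit cannot tell mesenchymal markers from culture days or from fewer libraries.

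The LO libraries (n = 1 each, no test) give another series over culture days. A gene was counted as past the fold where log2(TPM + 1) differed by at least 1 and the higher library had at least 5 TPM. Between LO_day8 and LO_day11 this held for 1 member, Nid2 (33.0 and 85.0 TPM), and for 5.25% of all genes that reached 5 TPM (2.38% higher and 2.87% lower). Between LO_day11 and LO_day18 it held for 9 members, 1 higher and 8 lower, and for 14.1% of genes (6.32% higher and 7.77% lower). After median-ratio rescaling it held for 10 members, 3 higher and 7 lower. From LO_day11 to LO_day18 the mesenchymal marker sum went from 39.9 to 2.42 TPM, the interstitial matrix sum from 91.9 to 21.2 TPM and the alveolar type 2 sum from 38074 to 119759 TPM, and the part of these was not tested. Lamb1 stood at 122, 67.4 and 13.2 TPM at days 8, 11 and 18, Lama1 at 17.1, 15.5 and 0.30 TPM, and Col4a6 at 39.2, 31.0 and 7.22 TPM. Hspg2 (113 and 28.4 TPM), Pxdn (21.9 and 6.24 TPM), Lamc1 (289.7 and 126 TPM), Lama3 (166 and 73.1 TPM) and Itga6 (87.1 and 41.5 TPM) were also lower at day 18 than at day 11. Col4a3 was higher (6.75 and 23.0 TPM). The share of Lamb1 in beta chain TPM was 35.6, 19.0 and 4.71%, and that of Lamb3 26.5, 32.5 and 61.8%. The LO libraries and the dated organoids are different samples in separate tables, and Lama1, Lamb1, Lamc1, Col4a6 and Hspg2 were lower at the later days in both. Col4a1, called as falling with culture day in the dated organoids, went the other way here, at 115, 142 and 211 TPM at days 8, 11 and 18. The share of all genes that moved alike in both was not counted.

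LO_day11_DCI, set beside LO_day11, had 14 members past the fold, 7 higher and 7 lower, against 24.2% of genes (11.2% higher and 13% lower). Collagen IV was higher for 4 of 6 chains: Col4a3 stood at 58.9 against 6.75 TPM, Col4a4 at 61.8 against 9.83 TPM, Col4a2 at 293 against 83.4 TPM and Col4a1 at 378 against 142 TPM. Col4a3 and Col4a4 stood higher with DCI than in any tip or dated organoid, which come from another table. Such levels were not particular to DCI, since the organoid piece labelled left-half held Col4a3 at 64.2 TPM and Col4a4 at 51.5 TPM. Itgb6 (46.2 against 12.1 TPM), Npnt (317 against 119 TPM) and Agrn (355 against 176 TPM) were higher as well. Nid2 was lower by the widest margin, at 4.57 against 85.0 TPM. Col18a1 (85.2 against 402 TPM), Fras1 (1.68 against 10.9 TPM), Frem2 (10.9 against 43.2 TPM), Lama1 (3.66 against 15.5 TPM), Col4a6 (8.82 against 31.0 TPM) and Lamb1 (31.2 against 67.4 TPM) were lower too. The DCI library also differed in markers. The alveolar type 1 sum (6 genes) was 5245 against 585 TPM, the alveolar type 2 sum 83065 against 38074 TPM and the interstitial matrix sum 292 against 91.9 TPM. The mesenchymal sum was lower, at 31.1 against 39.9 TPM, with Pdgfra at 14.7 against 0.03 TPM and Dcn at 0.66 against 34.4 TPM. Of the 4 mesothelial markers Msln stood at 277 against 6.19 TPM, while Wt1, Upk3b and Lrrn4 were at 0 with DCI. The part of these in the differences was not tested.

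In the 2C set (n = 1 each, no test), 2C+MTG, 2C+VC and the unnumbered ALL library were each set beside the same 2C library. Nid2 stood at 2.61 TPM in 2C, 2.86 in 2C+F10, 48.5 in 2C+MTG, 29.3 in 2C+VC and 66.7 in ALL, so it was low in the libraries without MTG or VC in their name, other than ALL, and high in the rest. In 2C+F10, 1 member was past the fold (5.9% of genes, 3.08% higher and 2.82% lower), Col18a1, at 27.1 against 69.8 TPM. In 2C+MTG 4 were, all higher (7.52% of genes, 2.59% higher and 4.93% lower): Nid2, Col18a1 (265 TPM), Lama3 (120 against 49.4 TPM) and Pxdn (17.3 against 2.56 TPM). In 2C+VC 6 were, all higher (9.61% of genes, 5.81% higher and 3.8% lower): Nid2, Col4a3 (24.4 against 5.05 TPM), Col4a4 (25.3 against 10.2 TPM), Col4a1 (345 against 167 TPM), Col4a2 (207 against 88.5 TPM) and Itgb6 (42.5 against 15.3 TPM). All 4 chains of the head-to-head pairs whose shared windows are printed above were thus past the fold in 2C+VC and in LO_day11_DCI. In the unnumbered ALL library 4 were (12.3% of genes, 4.89% higher and 7.44% lower): Nid2, Col18a1 (340.0 TPM), Col4a3 (13.0 TPM) higher and Frem2 (18.1 against 37.7 TPM) lower. After median-ratio rescaling 6 were past the fold there, all higher, and Frem2 was not among them. 2C+F10 had an interstitial matrix sum of 230 TPM against 41.7 TPM in 2C.

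**Figure D4:**
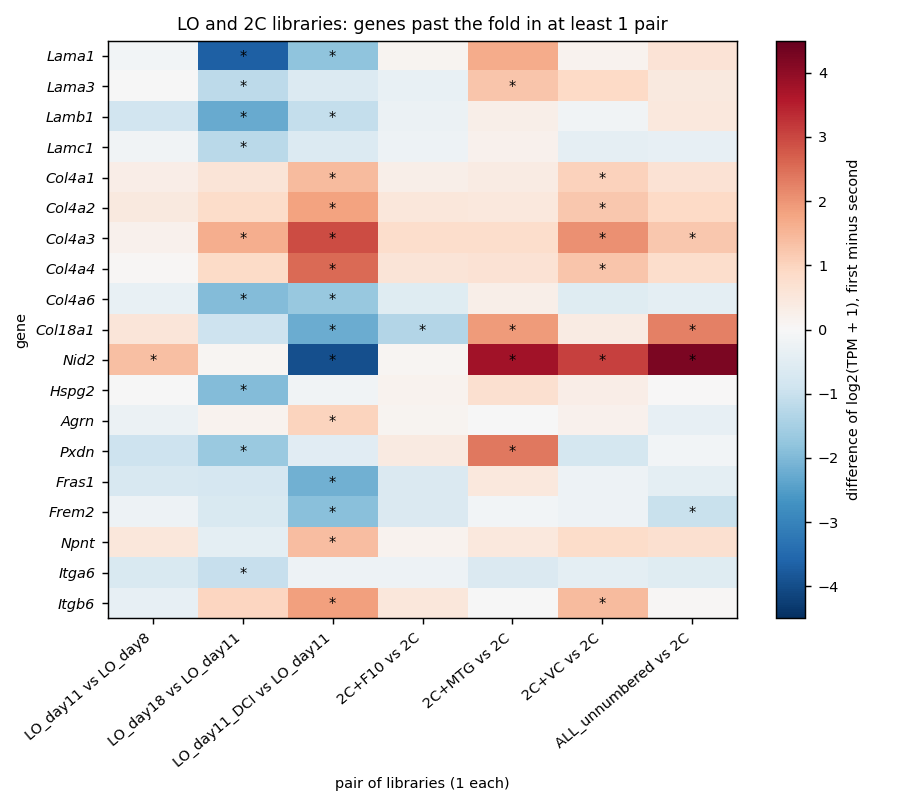
Differences of log2(TPM + 1), first library minus second, for 19 members past the fold in at least 1 pair of LO or 2C libraries (colour), with an asterisk where past the fold and 1 library on each side. Nid2 is lower in LO_day11_DCI and higher in 2C+MTG, 2C+VC and the unnumbered ALL library.

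The omissions were tested on 8 numbered libraries (n = 2 each) in 1 limma fit over 14802 genes. Of the members 29 of 34 passed the filter on low values. Lama2, Lama4, Nid1, Frem1 and Itga8 did not. ALL-FGF10 against ALL called 1 member (1.83% of all genes, 0.878% higher and 0.953% lower), Pxdn, which stood at 23.6 and 10.7 TPM in ALL and was down to 1.06 and 0.05 TPM with ALL-FGF10 (-3.53 ± 0.47, adjusted p = 0.0162). The unnumbered ALL library, however, held Pxdn at 2.23 TPM. The mesenchymal marker sum was 41.1 and 4.19 TPM in ALL and 0.70 and 0.46 TPM in ALL-FGF10. In ALL-VC that sum was 0.83 and 0.55 TPM, with Pxdn at 12.8 and 17.9 TPM. The part of mesenchymal cells was not tested. The call was lost without either ALL-FGF10 library and with the 2 groups fitted alone (adjusted p = 0.0653). The median over all genes was 0.10, and after median-ratio rescaling 2 members were called, 1 higher and 1 lower.

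ALL-MTG against ALL called 2 members, both higher (0.513% of all genes, 0.135% higher and 0.378% lower). Lama3 stood at 53.4 and 43.8 TPM in ALL and at 127 and 120 TPM in ALL-MTG (1.34 ± 0.15, adjusted p = 0.0218). Col18a1 stood at 65.0 and 103 TPM in ALL and at 284 and 236 TPM in ALL-MTG (1.65 ± 0.22, adjusted p = 0.0317). The unnumbered ALL library, however, held Col18a1 at 340.0 TPM, above all numbered libraries, and Lama3 at 67.2 TPM. Both genes were also higher in 2C+MTG than in 2C, so a higher level went with MTG left out in one set and added in the other. Both calls were lost in a fit of the 2 groups alone (adjusted p = 0.167 for Lama3 and 0.176 for Col18a1), and none was left without ALL-MTG replicate 1 or without any 1 library of ALL-FGF10 or ALL-VC. The mesenchymal marker sum was 41.1 and 4.19 TPM in ALL and 175 and 11.0 TPM in ALL-MTG, where Dcn alone gave 168 TPM in the first library. Of the other pathway genes Adamts1, a matrix protease, fell from 56.3 ± 1.32 to 21.5 ± 2.71 TPM (-1.35, adjusted p = 0.0218).

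ALL-VC against ALL called 0 members by limma (0.804% of all genes, 0.209% higher and 0.595% lower). At unadjusted p under 0.05 stood 15 members, 14 higher and 1 lower. The share of all genes at that threshold was not counted, so the count is no result about the members. The median was 0.56 over the 29 members tested and 0.18 over all genes, and median-ratio rescaling also called 0 members. Hspg2 came closest, with 15.0 and 22.6 TPM in ALL and 52.9 and 46.5 TPM in ALL-VC (1.38, adjusted p = 0.0548). The unnumbered ALL library held it at 54.6 TPM, level with ALL-VC. Without ALL replicate 1, 7 members were called, 6 higher and 1 lower, and without ALL replicate 2, 2 were called, both higher. The share of all genes called in these runs was not counted.

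The omissions were also set beside each other, without the mean of ALL. ALL-FGF10 against ALL-MTG called 6 members, 2 higher and 4 lower (3.52% of all genes, 1.78% higher and 1.74% lower). Lamb1 levels were 25.2 and 27.5 TPM in ALL-FGF10 against 3.63 and 9.64 TPM in ALL-MTG (1.96 ± 0.36, adjusted p = 0.033), and Dag1 at 312 and 336 against 176 and 170.2 TPM (0.90 ± 0.18, adjusted p = 0.0451). Lamb1 was lower in both ALL-MTG libraries than in any other of the 8, at 1.36 and 3.46% of beta chain TPM against 6.50 to 11.1% in the others. Lama3 (48.3 and 46.8 against 127 and 120 TPM, -1.36, adjusted p = 0.00483), Hspg2 (12.3 and 16.0 against 56.1 and 48.6 TPM, -1.82, adjusted p = 0.0102), Col18a1 (-1.18, adjusted p = 0.0356) and Pxdn (-2.25, adjusted p = 0.0468) were lower. Also lower were Hmcn1, a hemicentin of the matrix (-2.75, adjusted p = 0.0212), Ntn4, a netrin of basement membranes (-2.16, adjusted p = 0.0311), and Zyx, an adhesion plaque gene (-1.20, adjusted p = 0.0142), and higher was Adamts1 (1.50, adjusted p = 0.00382).

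ALL-FGF10 against ALL-VC called 5 members, all lower (3.82% of all genes, 1.94% higher and 1.88% lower). Pxdn stood at 1.06 and 0.05 TPM against 12.8 and 17.9 TPM (-3.46 ± 0.47, adjusted p = 0.0104). Hspg2 stood at 12.3 and 16.0 against 52.9 and 46.5 TPM (-1.75 ± 0.24, adjusted p = 0.0108). The laminin chains Lama5 (108 and 102 against 199 and 172 TPM, -0.80, adjusted p = 0.0358), Lama3 (-0.80, adjusted p = 0.03) and Lamc1 (98.8 and 93.0 against 166 and 149 TPM, -0.71, adjusted p = 0.0409) made up the rest. Hmcn1 (-2.67, adjusted p = 0.0229) and the collagen chaperone gene Serpinh1 (-0.96, adjusted p = 0.0276) fell as well, and Itgb3 rose (1.82, adjusted p = 0.048). Hspg2 and Lama3 thus stood lower in the numbered ALL and ALL-FGF10 libraries than in all ALL-MTG and ALL-VC libraries, although ALL-VC against ALL was not called. ALL-MTG against ALL-VC called 0 members (0.547% of all genes, 0.338% higher and 0.209% lower). At unadjusted p under 0.05 stood 8, 3 higher and 5 lower (the share of all genes at that threshold was not counted). The nearest to a call was Lamb1 (-1.94, adjusted p = 0.0887). The median over all genes was -0.11 there, and 1 member was called, as higher, after median-ratio rescaling. The 6 comparisons share libraries, so they are not independent of each other. With ALL-FGF10 replicate 1 or 2 left out, the comparisons of ALL-FGF10 with ALL-MTG and ALL-VC called 0 members. Without ALL-VC replicate 1, ALL-FGF10 against ALL-VC called 0 members too. Each of its 5 calls was lost in 4 of the 8 fits that left out 1 library.

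**Figure D5:**
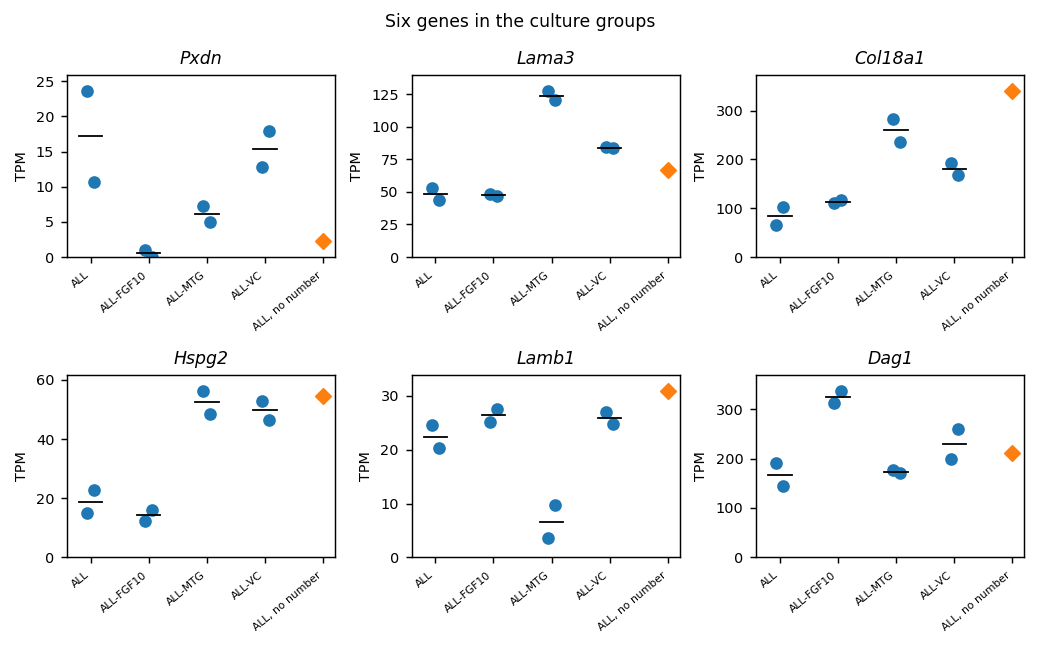
TPM of 6 members in the 4 culture groups (circles are single libraries, n = 2 per group, bars their means) and in the unnumbered ALL library (diamond), which comes from another table. Hspg2 and Lama3 are higher in ALL-MTG and ALL-VC than in ALL and ALL-FGF10, and the diamond lies apart from the ALL circles for Pxdn, Col18a1 and Hspg2.

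The 8 pieces (n = 1 each, no test) are labelled by position (up, down, left, right and smaller parts of up and down), and the labels do not say whether any came from the same organoid. Set beside 1 intact organoid, 19 of the 26 members at 1 TPM or more in every piece varied by less than 4-fold. The widest spreads were those of Nid2, from 2.30 to 34.6 TPM, Pxdn, from 1.46 to 20.3 TPM, Fras1, from 1.31 to 8.53 TPM, and Col18a1, from 26.0 to 138 TPM. Each of these was highest in the piece labelled up-half. That piece also had the highest mesenchymal marker sum, 31.5 TPM, of which Dcn gave 29.7, against 0.06 to 7.63 TPM in the other pieces and 0 in the intact organoid, and the lowest interstitial matrix sum of the pieces, 17.0 TPM. Their part was not tested. Lamb3 kept within 126 to 176 TPM and Lamb2 within 79.6 to 105 TPM. All 8 pieces lay above the intact organoid for Lama5, Lamb3, Col4a1, Col4a2, Agrn, Itga3, Itgb4 and Itgb6, and none did for Itga2 (0.47 to 2.57 TPM in pieces and 5.67 TPM intact). The piece labelled down-half-left was the lowest for 15 members, among them Lamb1 (9.88 TPM), Lamc1 (55.0 TPM) and Col4a6 (4.00 TPM). Some of the 15 lay near the floor, such as Lama1 (0.15 TPM) and Itgb4 (0.07 TPM). The matching shares of all genes were not counted for the pieces, so these counts describe the members without showing that they differ from other genes.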

How the data were processed

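Total RNA from lung tips, organoids and organoid pieces was sequenced as mRNA libraries, per the labels' protocols. The authors deposited 5 tables of TPM per gene symbol, made with RSEM and Bowtie2 on mm10 per the submitters' processing notes, which give no versions. TPM is a share of each library, holds no depth, and moves with the abundance of other genes. Titles identified 40 columns, and 1 further column, which fits no sample, was not used. Libraries correlated with each other at 0.904 to 0.986 (Pearson, log2) within sets, and none were identical.

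Genes with at least 1 TPM in at least 2 libraries of a fit were tested with limma 3.58.1 (lmFit, eBayes with trend, R 4.3.3) on log2(TPM + 1), two-sided, with Benjamini-Hochberg adjustment over all genes tested and a call at adjusted p under 0.05. This scale understates changes of low genes. The 8 numbered culture libraries shared a fit. Tips and organoids shared 2 fits, as groups and as slopes, multiplied by ranges of 21, 4.5 and 3 days. Settings had 1 library each, so the spread around the lines stands in for replicates. All members are named or counted in each comparison, and of the other pathway lists up to 4 called genes with at least 5 TPM in the higher group, the largest by log2 change. The result of 1 gene of these lists is not reported here. The members and lists were chosen with earlier results of these data known. Alternatives were a pseudocount of 0.1 TPM, no filter, median-ratio rescaling, a replicate block, fewer groups and leaving out single libraries. The fits were tested on simulated data. Coordinates are from GENCODE M21 (GRCm38) and promoter windows from RefSeq. Figures used matplotlib 3.10.9 with Python 3.11.15.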

Additional observations from a re-analysis of the deposited data

Results flagged for a closer look

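Of 68 sets of values examined (34 members in 4 tips and in 10 organoids), 2 held a library far from the others. This is no more than the 1 in 20 or so that chance gives among like libraries. These libraries differ in embryonic day or culture day, so that rate is only a rough guide. In tips, Col4a2 was 80.97 TPM at E10.5, the nearest other tip was 99.84 TPM and the highest 102 TPM. In organoids, Lama2 was 4.88 TPM in the E10.5 organoid of 11 days, the nearest other was 2.28 TPM and the lowest 0. That organoid is one of the 3 with over 30 TPM of mesenchymal markers, and the part of these cells was not tested.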

How the results depend on the processing

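No direction of a called member reversed: of 847 values of single genes under an alternative, 728 kept their call and 119 lost it. Organoids against tips called 20 to 23 members with single libraries left out (21 with all). The culture-day slope called 8 to 15 (13 with all), with the low count without the E10.5 organoid of 32 days, and 2 without the 3 organoids of high mesenchymal markers, an alternative chosen after seeing the data. Start day gave 0 in each such run. Embryonic day in tips gave 0 to 2 (1 with all) and 0 with tips alone. In the culture groups, leaving out 1 of the 8 libraries gave 0 to 3 members for ALL-FGF10 and for ALL-MTG against ALL, 0 to 7 for ALL-VC against ALL, 0 to 6 for ALL-FGF10 against ALL-MTG, 0 to 7 for ALL-FGF10 against ALL-VC and 0 to 1 for ALL-MTG against ALL-VC. With only the groups compared, the counts were 0 for ALL-FGF10 and 0 for ALL-MTG against ALL, and 13 for ALL-FGF10 against ALL-VC, 1 higher and 12 lower. The share of all genes called was not counted for any alternative, so these counts do not set the members apart from other genes. Without a filter on TPM, more genes entered the adjustment, and the counts were 0 for ALL-MTG against ALL, 2 for ALL-FGF10 against ALL-MTG and 3 for ALL-FGF10 against ALL-VC. Median-ratio rescaling raised ALL-FGF10 against ALL to 2 members (1 higher, 1 lower), left 1 when ALL-MTG was set against ALL, and gave 1 for ALL-MTG against ALL-VC. With 1 TPM in place of 5 in the higher library, 2C+F10 against 2C had 4 members past the fold. For the other changes of a count the cause was not tested.

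The replicate numbers of the culture groups are only numbers: deviations of same-numbered libraries correlated at -0.0702 to 0.114. With the replicate number as a block, ALL-FGF10 against ALL gave 1 member, ALL-MTG against ALL 1, ALL-VC against ALL 0, ALL-FGF10 against ALL-MTG 4, ALL-FGF10 against ALL-VC 4 and ALL-MTG against ALL-VC 0. TPM gives no depth, and no limit is given for low values such as those of Lama2, Frem1 and Itga8.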
